A study of Homo sapiens with 4 samples.

Results

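The genes described here are the CDK inhibitors and the D-type cyclins, chosen by name as the 4 INK4 inhibitors (CDKN2A, CDKN2B, CDKN2C and CDKN2D), the 3 CIP/KIP inhibitors (CDKN1A, CDKN1B and CDKN1C) and the 3 D-type cyclins (CCND1, CCND2 and CCND3). All 10 were found among the 57820 gene identifiers of the series. They were measured by sequencing of poly(A)-selected RNA from the Daoy line, established from a human medulloblastoma. The library labelled ARID1B shRNA came from a polyclonal Daoy population with a lentiviral tet-pLKO-puro vector that makes a short hairpin RNA against ARID1B, a subunit of the SWI/SNF chromatin remodelling complexes, when doxycycline is given. The other 3 libraries, labelled wild type and numbered 1 to 3, stand for vector-only and parental cells in the series design, and the labels do not say which is which. Per the labels, all 4 libraries came from cells given doxycycline at 1 µg/ml for 72 h.

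These genes set the pace of the G1 phase of the cell cycle. D-type cyclins bind and activate the kinases CDK4 and CDK6, which phosphorylate the retinoblastoma protein RB and so release E2F transcription factors that switch on genes of DNA replication. INK4 proteins bind CDK4 and CDK6 and keep the cyclin out, whereas CIP/KIP proteins bind whole cyclin-kinase complexes, block CDK2 most strongly, and also help cyclin D and CDK4 to assemble. In the mouse cerebellum, Ccnd1 and Ccnd2 drive the division of granule neuron precursors under Sonic hedgehog, and Cdkn1b holds it back. The INK4 locus on human chromosome 9p21, where CDKN2A and CDKN2B lie side by side, is often lost in tumours.

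The libraries held 8792848 reads assigned to genes in the library labelled ARID1B shRNA and 12619786 to 15390106 in the wild-type libraries. With 1 library in the shRNA arm, every test took its spread from the 3 wild-type libraries, and since nothing in the labels says that these came from separate cultures, p-values measured only the spread between them. ARID1B itself stood at 175 CPM (counts relative to library size, TMM-scaled) in the library labelled ARID1B shRNA, against 164, 88.0 and 72.9 CPM in libraries 1, 2 and 3 of wild type, so the lowering that the label names was not seen (log2 fold change 0.69, standard error (SE) 0.46, edgeR adjusted p = 0.399). The label check itself moved with the setting: ARID1B stood at -0.18 once a trend with GC content and length was taken out (edgeR adjusted p = 0.889), and at 1.12 when wild-type library 1 was omitted (edgeR adjusted p = 0.026). Each direction below is therefore one of the library so labelled. Of the 10 markers of medulloblastoma and granule cell lineage, ATOH1 was at 0 counts in all 4 libraries and NEUROD1 was at 0 in the library labelled ARID1B shRNA, against 6, 4 and 5 reads in wild type, and BARHL1 had 1 read there and 0 in wild type. The other 7 were read in every library. Of these ZIC2 was called higher (24.8 CPM in the library labelled ARID1B shRNA, against 8.93, 10.6 and 8.14 CPM in wild type; edgeR adjusted p = 0.043), and SOX2 lay below wild type without passing (1.82, against 6.75, 3.94 and 5.08 CPM; 0.135). Bulk RNA cannot tell fewer cells of a kind from less RNA per cell.

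In outline, CDKN1A rose in the library labelled ARID1B shRNA and CDKN2B was not read there at all. Of the 9 members with enough reads to be tested, CDKN1A was called higher and CDKN2B lower at an edgeR adjusted p below 0.05, 1 in each direction. Across all 17024 tested genes 3.65% rose and 0.834% fell by the same rule, 4.48% in all. CDKN2A had too few reads to be tested, and CDKN2B passed the filter on low counts through the wild-type libraries alone, so nothing is read from the count of 1 lower. In level, 7 of the 9 tested members lay above every wild-type library and 2 lay below every one; of all tested genes 35.4% lay above, 37.9% below and 73.3% outside the wild-type range, so lying outside it was common. At an unadjusted p below 0.05, 6 of the 9 members passed, where 25.4% of all tested genes did. The median log2 fold change of the tested members was 0.68, beside -0.05 over all tested genes. CDKN2B is counted among the 9 in each of these figures, so they are given as description only.

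The members' count moved with the setting, as did the background. With no filter on low counts 3 members were higher, beside 7.40% of all genes so tested, and with DESeq2 2 were, beside 8.88%. With limma-voom 0 members were lower, beside 0.558% of genes, and CDKN2B alone was lower at an unadjusted p below 0.05. Without library 1 of wild type 4 members were higher and 1 lower, where 5.43% and 1.65% of all tested genes were. Without library 2 the counts were 1 and 1 (0.836% and 0.102% of genes), and without library 3 they were 1 and 0 (2.68% and 0.173%).

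**Figure D1:**
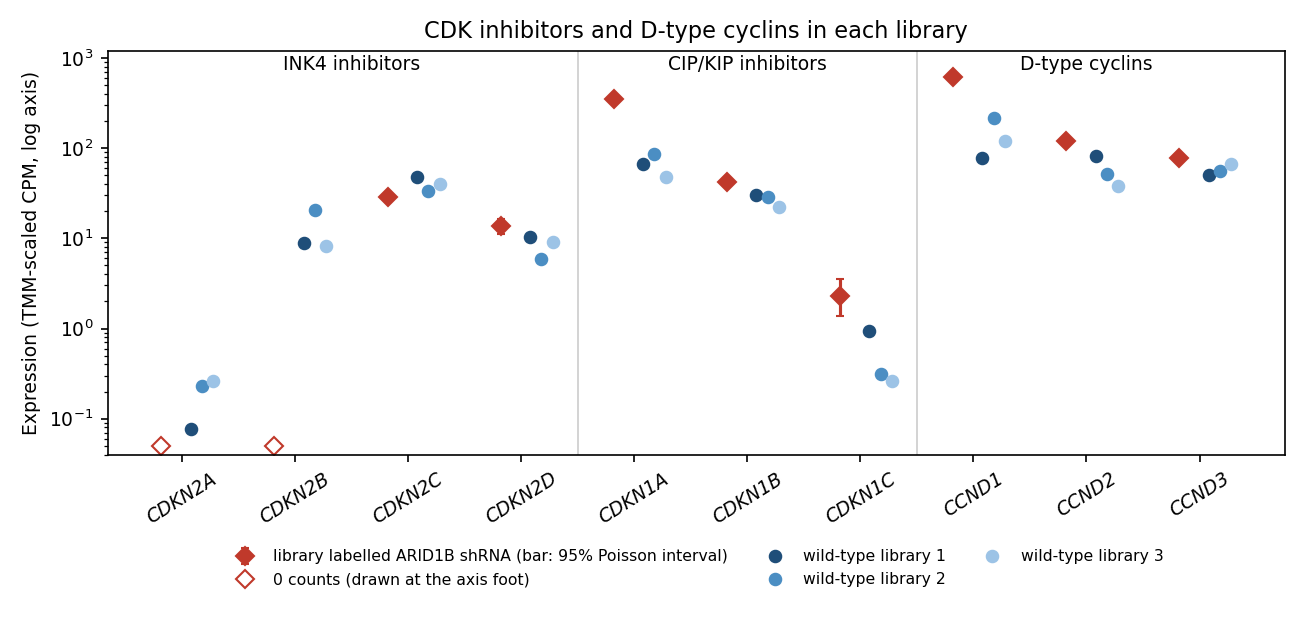
Library-scaled CPM of the 10 genes on a log axis, with the library labelled ARID1B shRNA as red diamonds (bars, exact 95% Poisson interval) and the 3 wild-type libraries as blue points. CDKN1A stood at 351 CPM in the library labelled ARID1B shRNA, above all wild-type points, and CDKN2A and CDKN2B were at 0 counts there.

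The start regions of the members that passed, and of CDKN1B as a family member that did not, were searched for short exact motifs. RefSeq windows (GRCh38.p14, from 250 bases before to 50 bases after the gene start, read 5′ to 3′ on the gene's own strand) were at hand for 7 of the 10 members, in 12 windows. In the 3 sequences below, capitals mark the GC box GGGCGG on either strand, a motif known to bind SP1-type factors. CDKN1A lies on chr6:36678464-36678763 (plus strand), CDKN1B on chr12:12717118-12717417 (plus strand) and CDKN2B on chr9:22009256-22009555 (minus strand).
CDKN1A: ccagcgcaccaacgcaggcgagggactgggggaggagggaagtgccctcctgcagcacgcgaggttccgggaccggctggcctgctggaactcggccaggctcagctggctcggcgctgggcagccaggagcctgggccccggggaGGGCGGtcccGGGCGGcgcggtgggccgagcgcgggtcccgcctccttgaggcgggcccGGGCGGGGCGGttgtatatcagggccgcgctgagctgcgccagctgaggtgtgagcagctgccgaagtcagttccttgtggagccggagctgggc
CDKN1B: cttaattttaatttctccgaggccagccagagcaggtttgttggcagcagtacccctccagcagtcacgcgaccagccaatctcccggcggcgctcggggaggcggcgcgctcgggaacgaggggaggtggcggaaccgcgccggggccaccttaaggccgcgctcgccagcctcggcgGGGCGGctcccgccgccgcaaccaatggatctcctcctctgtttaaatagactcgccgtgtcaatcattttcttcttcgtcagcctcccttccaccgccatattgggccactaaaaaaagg
CDKN2B: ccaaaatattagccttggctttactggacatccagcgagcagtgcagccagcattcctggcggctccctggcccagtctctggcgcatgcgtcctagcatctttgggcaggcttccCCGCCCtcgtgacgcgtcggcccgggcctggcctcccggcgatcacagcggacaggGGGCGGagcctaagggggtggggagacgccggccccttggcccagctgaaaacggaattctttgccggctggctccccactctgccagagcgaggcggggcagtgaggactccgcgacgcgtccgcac
The CDKN1A window held 4 GC boxes, at bases 147, 157, 206 and 211 counted from its 5′ end, of which the pair at 206 and 211 overlap by a base. CDKN1B had 1 GC box, at base 180, and CDKN2B had 2, at bases 117 and 173. A GC box is found in 45.0% of all 35116 windows. A further 6 motifs, also searched on both strands, had no match in these 3 windows: TATAAA (in 11.5% of all windows), TGANTCA (7.71%), TGACGTCA (1.85%), CACGTG (7.26%), TTTNNCGC (6.89%) and TGATGNAA (3.62%). GC content was 74.3% in the CDKN1A window, 62.3% for CDKN1B and 67.3% for CDKN2B, against a median of 58.7% over all windows.

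Among the CIP/KIP inhibitors, CDKN1A showed the clearest difference. CDKN1A (ENSG00000124762.9) encodes p21, the inhibitor that p53 and many stress signals induce. It had 3074 reads, or 351 CPM (exact 95% Poisson interval 338 to 363, counting error only), in the library labelled ARID1B shRNA, against 67.2, 86.8 and 48.4 CPM in libraries 1, 2 and 3 of wild type. The lone value thus lay well above a wild-type spread of 1.79-fold from lowest to highest. CDKN1A rose 5.20-fold, a log2 fold change of 2.38 (SE 0.30, edgeR adjusted p = 0.0274). The call stood whichever wild-type library was omitted, at log2 fold changes of 2.18 to 2.61 and an edgeR adjusted p of 0.0173 without library 1, 0.049 without library 2 and 0.0408 without library 3.

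Base composition moved with this result. In the library labelled ARID1B shRNA, genes with GC-rich transcripts read higher in general: the median log2 fold change was 1.32 in the tenth of tested genes with the highest GC content and -0.30 in the tenth with the lowest. The longest CDKN1A transcript has a GC content of 58.1%, in the ninth such group, whose median was 0.51. Once a smooth trend with GC content and length had been taken out of each library, CDKN1A stood at 1.81 with an SE of 0.45 and no longer passed (edgeR adjusted p = 0.127). With the trend removed 0 of the 9 tested members passed by edgeR. CDKN2B was among the 6 with an unadjusted edgeR p below 0.05. Of all tested genes 1.93% rose and 1.19% fell at an edgeR adjusted p below 0.05, 3.12% in all.

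CDKN1B and CDKN1C did not pass. CDKN1B (ENSG00000111276.6) encodes p27, the inhibitor of resting cells whose level is set largely by protein breakdown. It measured 42.5 CPM in the library labelled ARID1B shRNA, against 30.4, 28.6 and 22.1 CPM in wild type, with a log2 fold change of 0.66 and an SE of 0.25 (edgeR adjusted p = 0.177). All wild-type values lay below the lone one, but judged by the spread between wild-type libraries the difference did not pass after adjustment. Its transcript is of middling GC content (47.7%), and with the trend removed its log2 fold change was 0.76 (edgeR adjusted p = 0.116). CDKN1C (ENSG00000129757.8) encodes p57, an imprinted inhibitor of embryonic growth. It had 20 reads in the library labelled ARID1B shRNA, against 12, 4 and 4 reads in wild type, which is 2.28 CPM against 0.931, 0.309 and 0.260 CPM. At this depth the log2 fold change of 2.19 had an SE of 0.75 (edgeR adjusted p = 0.148), and it was 0.83 with the trend removed. When wild-type library 1, the highest of the 3, was omitted, CDKN1C reached 2.97 (edgeR adjusted p = 0.0359). CDKN1C is also the most GC-rich of the 10 members, at 63.8%.

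The D-type cyclins all read highest in the library labelled ARID1B shRNA, and none passed the test. CCND1 (ENSG00000110092.3) encodes cyclin D1, which growth factor signals through RAS and ERK are known to raise. It had 5315 reads, or 606 CPM, in the library labelled ARID1B shRNA, against 77.5, 217 and 121 CPM in libraries 1, 2 and 3 of wild type. The wild-type libraries themselves differed by 2.80-fold, the widest spread of the members with at least 50 reads in every library. The log2 fold change was 2.13, close to that of CDKN1A, with a larger SE of 0.51 (unadjusted p = 0.00857, edgeR adjusted p = 0.0871). Without wild-type library 1, the lowest, it was 1.84 and passed (edgeR adjusted p = 0.0362), without library 2 it was 2.62 (0.0509), and without library 3 it was 2.03 (0.244). DESeq2 called CCND1 higher (log2 fold change 2.16, DESeq2 adjusted p = 4.96e-04). After removal of the GC and length trend the value was 2.07, so the GC content of its transcript (50.3%) moved it little (edgeR adjusted p = 0.16).

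CCND2 (ENSG00000118971.3), which encodes cyclin D2, followed with a smaller difference. It measured 121 CPM in the library labelled ARID1B shRNA, against 81.8, 51.6 and 37.9 CPM in wild type. Here library 1 was the highest wild-type library, where for CCND1 it was the lowest. Its log2 fold change was 1.09 (SE 0.41, edgeR adjusted p = 0.182); it was 1.44 without library 1 (edgeR adjusted p = 0.0165) and 1.20 with the trend removed (0.196). CCND3 (ENSG00000112576.8), which encodes cyclin D3, differed least. It measured 77.8 CPM in the library labelled ARID1B shRNA, against 50.8, 55.7 and 66.5 CPM in wild type, a log2 fold change of 0.43 with an SE of 0.21 (edgeR adjusted p = 0.263), and 0.09 with the trend removed.

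**Figure D2:**
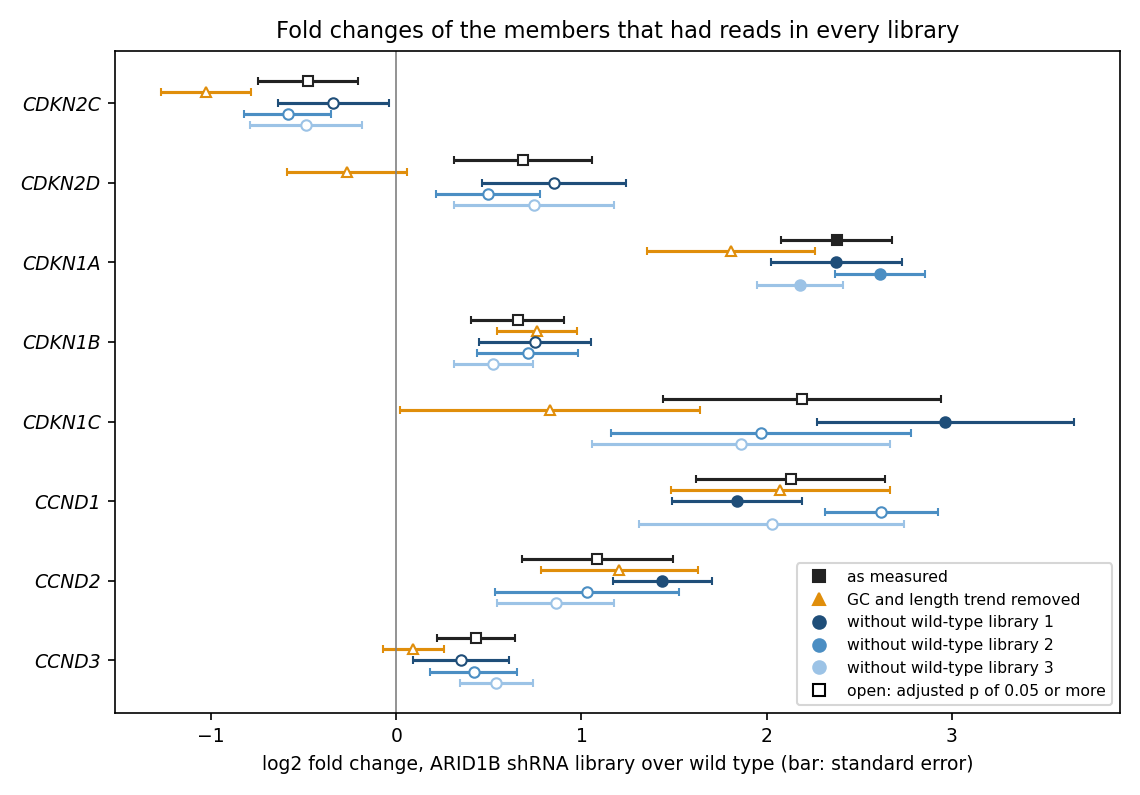
Log2 fold changes (library labelled ARID1B shRNA over wild type) with standard errors for the 8 members read in every library and with enough reads to be tested, as measured, after removal of the GC and length trend, and with each wild-type library omitted; filled symbols have an adjusted p below 0.05. CDKN1A was at 2.38 as measured and 1.81 with the trend removed, and CDKN2D lay on opposite sides of 0, at 0.68 and -0.27.

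The INK4 genes outside 9p21 did not pass the test, which took its spread from the wild-type libraries. CDKN2C (ENSG00000123080.6) encodes p18 and, per length of the longest transcript, was the most abundant INK4 mRNA in every library; per length of merged exons CDKN2D stood just above it in the library labelled ARID1B shRNA (51.0% of the class, against 49.0% for CDKN2C). It measured 28.7 CPM in the library labelled ARID1B shRNA, against 47.4, 33.1 and 39.6 CPM in wild type, below each of them (log2 fold change -0.48, SE 0.27, edgeR adjusted p = 0.319). Its transcript is as GC-rich as that of CDKN1A, at 58.1%, and with the trend removed the log2 fold change was -1.03 (edgeR adjusted p = 0.0812). CDKN2D (ENSG00000129355.6) encodes p19, which in mouse helps to keep neurons from dividing. It measured 13.6 CPM in the library labelled ARID1B shRNA, against 10.3, 5.87 and 9.11 CPM in wild type (log2 fold change 0.68, SE 0.37, edgeR adjusted p = 0.305). CDKN2D has a GC content of 61.3%, and its direction turned with the trend removed (-0.27, edgeR adjusted p = 0.658).

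CDKN2B, which encodes p15, a TGF-beta-induced inhibitor of CDK4 and CDK6, was read in wild type only. CDKN2B (ENSG00000147883.9) had 0 reads in the library labelled ARID1B shRNA, against 114, 267 and 125 reads, or 8.85, 20.6 and 8.14 CPM, in libraries 1, 2 and 3 of wild type. A floor of 3 counts in the lone library, 0.342 CPM, puts CDKN2B at least 36.6-fold below the mean of the wild-type libraries. Without library 2 that bound was 24.8-fold. CDKN2B passed the filter on low counts through the wild-type libraries alone, so its edgeR call is not read as support. The call ended when wild-type library 3 was omitted (edgeR adjusted p = 0.0703), once the trend was removed (0.0577) and with limma-voom (0.0968). CDKN2A (ENSG00000147889.12), which encodes p16 and, from another start, the p53 activator ARF, had 0 reads in the library labelled ARID1B shRNA, against 1, 3 and 4 reads in wild type. Counts per gene cannot tell its products apart, and with at most 4 reads a library no difference was detectable at this depth.

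The zero of CDKN2B was shared by its neighbours. By RefSeq gene order 69 genes run from MLLT3 to ELAVL2, and 57 of them were in the files. Within these, the run from HACD4 to LINC01239, delimited after the values were seen, held 44 genes. In the library labelled ARID1B shRNA 0 of the 44 had a read, where in wild type 8 had one or more, with 210, 514 and 241 reads in all in libraries 1, 2 and 3. MTAP, the methionine salvage enzyme close to CDKN2A, had 0 reads in the library labelled ARID1B shRNA, against 3.18, 7.88 and 2.86 CPM in wild type, at least 13.6-fold lower than their mean and at least 8.83-fold lower without library 2. KLHL9, a ubiquitin ligase adaptor, had 0 reads there, against 0.776, 2.71 and 0.976 CPM in wild type. HACD4, IFNA4 and the pseudogene TUBB8P1 were at 0 as well, against at most 13, 45 and 46 reads in a wild-type library, and none of the 5 neighbours that were tested passed (edgeR adjusted p = 0.0604 to 0.136).

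FOCAD and MLLT3 on one side of this run, and CLIC4P1 on the other, were read in every library. MLLT3 measured 10.8 CPM in the library labelled ARID1B shRNA, against 17.8, 14.9 and 12.7 CPM in wild type, and FOCAD measured 7.98 CPM, against 11.1, 12.8 and 10.7 CPM. On the other side the pseudogene CLIC4P1, whose reads may belong to copies elsewhere, measured 26.7 CPM, against 18.4, 26.1 and 19.7 CPM. None of these 3 passed (edgeR adjusted p = 0.305 to 0.505). Beyond CLIC4P1, ELAVL2 had 0 reads in the library labelled ARID1B shRNA, against 0, 2 and 1 reads in wild type, too few to show where the run of zeros ends on that side.

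Within wild type CDKN2B and MTAP kept similar proportions. For each read of MTAP there were 2.78, 2.62 and 2.84 reads of CDKN2B in libraries 1, 2 and 3. The genes of the run with reads were all highest in library 2, apart from CDKN2A, which is at the limit of counting: library 2 exceeded library 1 by 2.33-fold for CDKN2B, 2.48-fold for MTAP, 3.49-fold for KLHL9, 3.73-fold for IFNA4 and 1.76-fold for TUBB8P1. Among the flanking genes that ratio was 1.42 for CLIC4P1, 1.16 for FOCAD and 0.839 for MLLT3. The 7 fibroblast and mesenchymal markers peaked in different wild-type libraries. COL1A2 (1900, 1271 and 2050 CPM in libraries 1, 2 and 3) and THY1 (133, 84.6 and 108 CPM) were lowest in library 2. COL3A1 (1349, 655 and 626 CPM) was highest in library 1, and COL1A1 (1661, 1677 and 2995 CPM) in library 3. The other 3 were highest in library 2. These were DCN (1.25 CPM in the library labelled ARID1B shRNA, against 0.310, 29.8 and 6.83 CPM in libraries 1, 2 and 3 of wild type), LUM (14.4, against 21.7, 130 and 24.2 CPM) and PDGFRB (14.9, against 38.3, 102 and 33.7 CPM). The summed level of that list was 3670 CPM in the library labelled ARID1B shRNA and 3950 to 5844 CPM in wild type, where library 2 had the lowest sum, and none of its 7 genes passed. The blood and endothelial markers PTPRC, CD3E, CD68 and CDH5 had at most 3 reads in any library. The part of other cells in the CDKN2B and MTAP values was not tested.

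**Figure D3:**
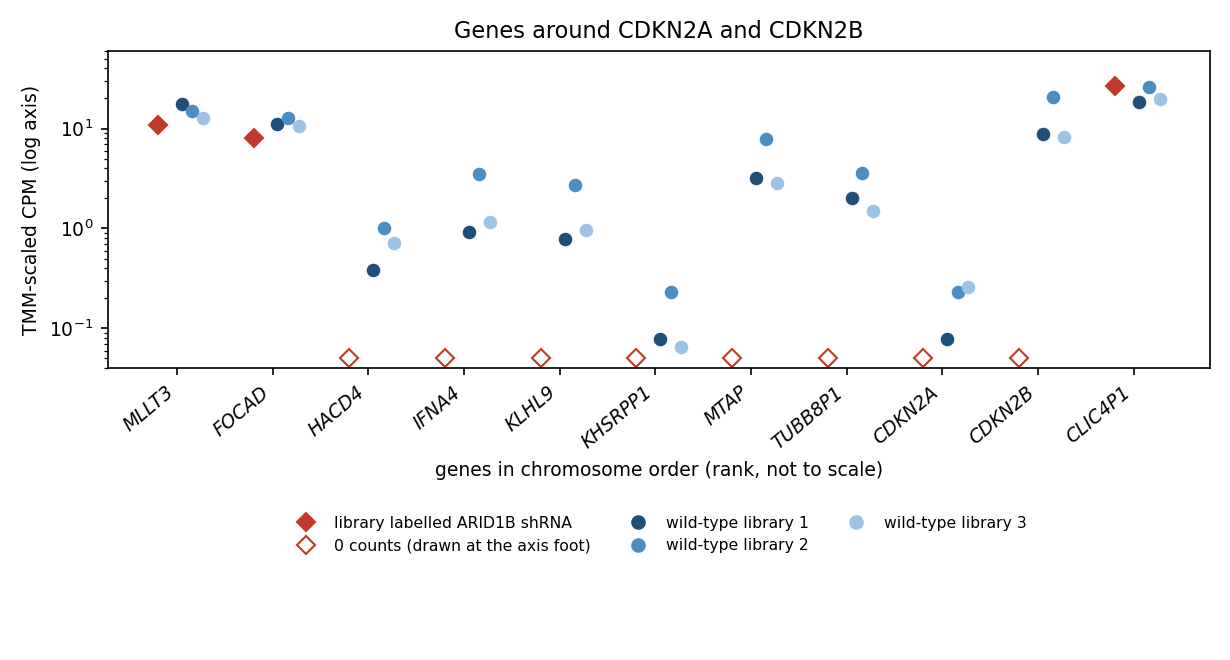
Library-scaled CPM on a log axis for genes from MLLT3 to CLIC4P1 with at least 5 wild-type reads, in chromosome order by rank. Red diamonds are the library labelled ARID1B shRNA, open where it had 0 counts, from HACD4 to CDKN2B, and blue points are the 3 wild-type libraries, of which library 2 was the highest for MTAP (7.88 CPM) and CDKN2B (20.6 CPM).

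Levels of different genes can be set side by side only per transcript length. As CPM per kilobase of the longest transcript, the library labelled ARID1B shRNA had CDKN1A at 155 and CCND1 at 141, followed by CCND3 at 32.5, CCND2 at 18.7, CDKN1B at 16.0, CDKN2C at 9.90, CDKN2D at 9.55 and CDKN1C at 1.18. The order of CCND3 and CCND2 in that library turned per kilobase of merged exons, where CCND2 held 10.9% of the D-type cyclin sum and CCND3 8.60%. In wild type the order by mean level was CCND1 at 32.2 ± 16.6, CDKN1A at 29.8 ± 8.48, CCND3 at 24.1 ± 3.34, CDKN2C at 13.8 ± 2.47, CDKN1B at 10.2 ± 1.65, CCND2 at 8.81 ± 3.46, CDKN2D at 5.93 ± 1.62, CDKN2B at 3.21 ± 1.80, CDKN1C at 0.258 ± 0.193 and CDKN2A at 0.148 ± 0.0766 (SD, n = 3). The first 3 overlapped in their wild-type ranges, as did each neighbouring pair from CDKN2C down to CDKN2B and the pair CDKN1C and CDKN2A. By this length, gaps without overlap stood only below CCND3 and below CDKN2B.

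The make-up of each class differed with these levels. Summed per kilobase, the CIP/KIP mRNAs came to 172 in the library labelled ARID1B shRNA, against 41.6, 49.2 and 29.8 in libraries 1, 2 and 3 of wild type, and CDKN1A made up 90.0% of the sum there, against 71.3%, 77.8% and 71.7%. The ratio of CDKN1A to CDKN1B was 9.66 in the library labelled ARID1B shRNA, against 2.59, 3.56 and 2.57 in wild type. The D-type cyclins came to 192, against 51.8, 81.7 and 61.7. CCND1 held 73.3% of that sum in the library labelled ARID1B shRNA, against 34.7%, 61.8% and 45.5% in wild type, and CCND3 held 16.9%, against 41.0%, 28.5% and 45.0%. The CCND3 share depended on the length used: per kilobase of merged exons it was 8.60% in the library labelled ARID1B shRNA, against 24.2%, 15.5% and 27.4% in wild type. Counted as reads without regard to length, the CCND1 share in the library labelled ARID1B shRNA was 75.3% (exact Clopper-Pearson 95% interval 74.3% to 76.3%), so counting error was small beside the spread between wild-type libraries.

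The INK4 class was the smallest in every library and did not follow the others. Its sum was 19.4 CPM per kilobase in the library labelled ARID1B shRNA, against 25.9, 21.0 and 22.3 in wild type. CDKN2C and CDKN2D made up 50.9% and 49.1% of it in the library labelled ARID1B shRNA, whereas in wild type CDKN2C held 54.3% to 63.0%, CDKN2D 19.7% to 28.7% and CDKN2B 8.73% to 25.2%. For each unit of CIP/KIP mRNA there were 1.12 units of D-type cyclin mRNA in the library labelled ARID1B shRNA, against 1.25, 1.66 and 2.07 in wild type, a ratio just below the wild-type range. These shares and sums are descriptions of single libraries and were not tested.

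**Figure D4:**
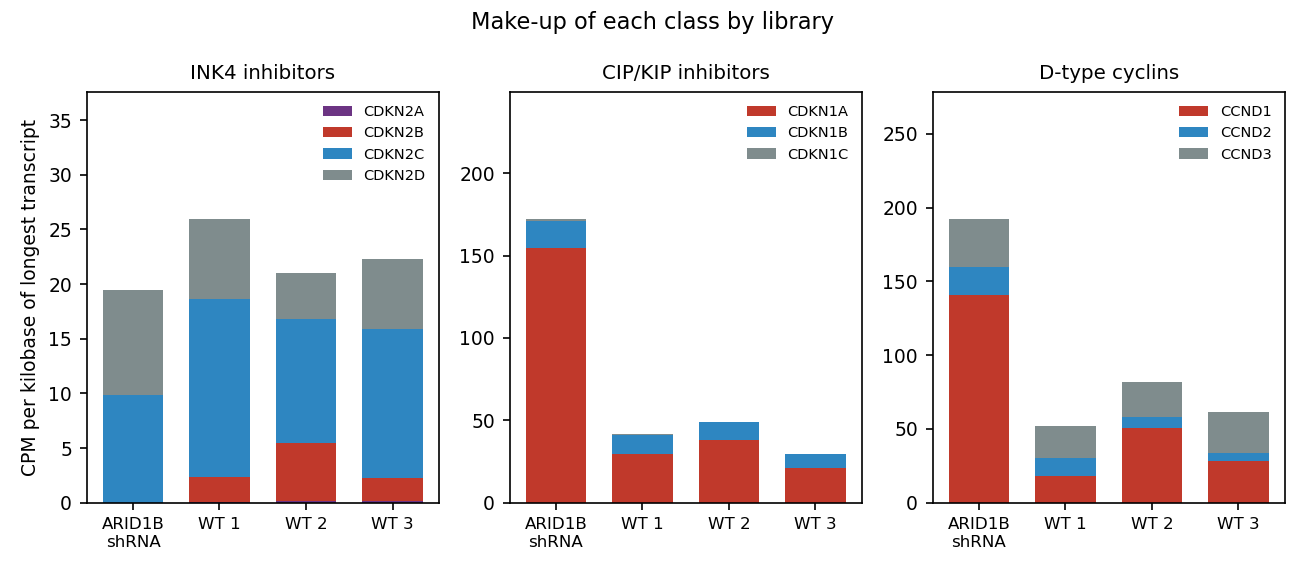
Stacked CPM per kilobase of the members of each class in the library labelled ARID1B shRNA and in wild-type libraries 1 to 3, with a separate linear axis from 0 for each class. The CIP/KIP bar stood at 172 in the library labelled ARID1B shRNA, mostly CDKN1A, and the D-type cyclin bar at 192, mostly CCND1.

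None of the kinases and pocket proteins that these genes act on passed the test as measured. Of 17 tested partners 0 passed by edgeR and 2 had an unadjusted p below 0.05, and their median log2 fold change was -0.24, beside -0.05 over all genes. Over all tested genes 4.48% passed the test and 25.4% had an unadjusted p below 0.05. With so low a share passing, 0 of 17 is not read as a result about these partners. The smallest p belonged to E2F2, an activating E2F factor (24.4 CPM in the library labelled ARID1B shRNA, against 42.1, 36.6 and 38.9 CPM in wild type; adjusted p from edgeR 0.13), and to RBL2, the pocket protein p130 of resting cells (35.9, against 60.3, 55.0 and 51.4 CPM; 0.135). With the trend removed E2F2 fell by 1.28 in log2 fold change (edgeR adjusted p = 0.0443). CDK4, CDK6 and RB1, named because they are the direct targets and chosen after their values were seen, stood at -0.22, 0.40 and -0.24 in log2 fold change, none of which passed (edgeR adjusted p = 0.47, 0.546 and 0.494).

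Genes that control the breakdown of these proteins did not pass either. Of 14 genes 13 had enough reads, 0 passed by edgeR with 3 at an unadjusted p below 0.05, and their median log2 fold change was -0.11. Over all tested genes 4.48% passed and 25.4% had an unadjusted p below 0.05, so these counts were near that background. SKP2, the ubiquitin ligase subunit that marks p27 for breakdown, measured 31.0 CPM in the library labelled ARID1B shRNA, against 45.6, 45.5 and 54.3 CPM in wild type (log2 fold change -0.64, edgeR adjusted p = 0.146). FBXO4, an F-box protein linked to cyclin D1 breakdown, measured 5.25 CPM, against 8.30, 10.3 and 9.76 CPM (-0.85, edgeR adjusted p = 0.174).

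Among 18 transcriptional regulators of the members, MYC and ID1 rose and none fell, with a list median of -0.03. Over all tested genes 3.65% rose and 0.834% fell by the same rule, so nothing is read from the absence of lower calls. MYC, a factor that represses CDKN1A and CDKN2B and activates CCND2, stood at 55.8 CPM in the library labelled ARID1B shRNA, against 13.3, 17.2 and 16.3 CPM in wild type (log2 fold change 1.84, SE 0.22, edgeR adjusted p = 0.0233). It kept its direction and passed with the trend removed (1.67), and had an edgeR adjusted p of 0.050022 without library 2 and 0.0523 without library 3. ID1, a target of BMP signals that opposes differentiation factors, stood at 97.0 CPM, against 31.6, 25.0 and 28.4 CPM, a log2 fold change of 1.77 (edgeR adjusted p = 0.0206), and passed with that trend taken out and whichever wild-type library was omitted. ZBTB17, the partner through which MYC represses CDK inhibitors, measured 65.2 CPM in the library labelled ARID1B shRNA, against 16.2, 17.4 and 30.0 CPM in wild type. Its log2 fold change was 1.62 as measured (edgeR adjusted p = 0.0729) and 0.52 with the trend removed. FOXO3, an activator of CDKN1B, had a log2 fold change of 0.60 (edgeR adjusted p = 0.123).

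The E2F-driven S-phase genes had negative log2 fold changes in 11 of 16 cases, beside 9052 of 17024 tested genes. Of the 16 genes 1 rose and 0 fell, 9 had an unadjusted p below 0.05 (25.4% over all tested genes), and their median log2 fold change was -0.45. The one that rose was CDT1, the replication licensing factor, at 35.4 CPM in the library labelled ARID1B shRNA, against 8.46, 7.81 and 11.5 CPM in wild type (log2 fold change 1.93, edgeR adjusted p = 0.031). With the trend removed CDT1 was at 0.33 and did not pass (edgeR adjusted p = 0.383), nor did it pass without library 2 (0.0577). MCM3, a subunit of the replicative helicase, measured 267 CPM in the library labelled ARID1B shRNA, against 504, 467 and 465 CPM in wild type. Its log2 fold change was -0.84, just short of the threshold as measured (edgeR adjusted p = 0.0504), and it passed with the trend removed (-0.91, edgeR adjusted p = 0.0404), as did the origin recognition gene ORC1 (-0.77, edgeR adjusted p = 0.0481). MCM6, from the same helicase, measured 104 CPM, against 203, 197 and 179 CPM (-0.89, edgeR adjusted p = 0.0527). With the trend removed the list's median was -0.46.

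**Figure D5:**
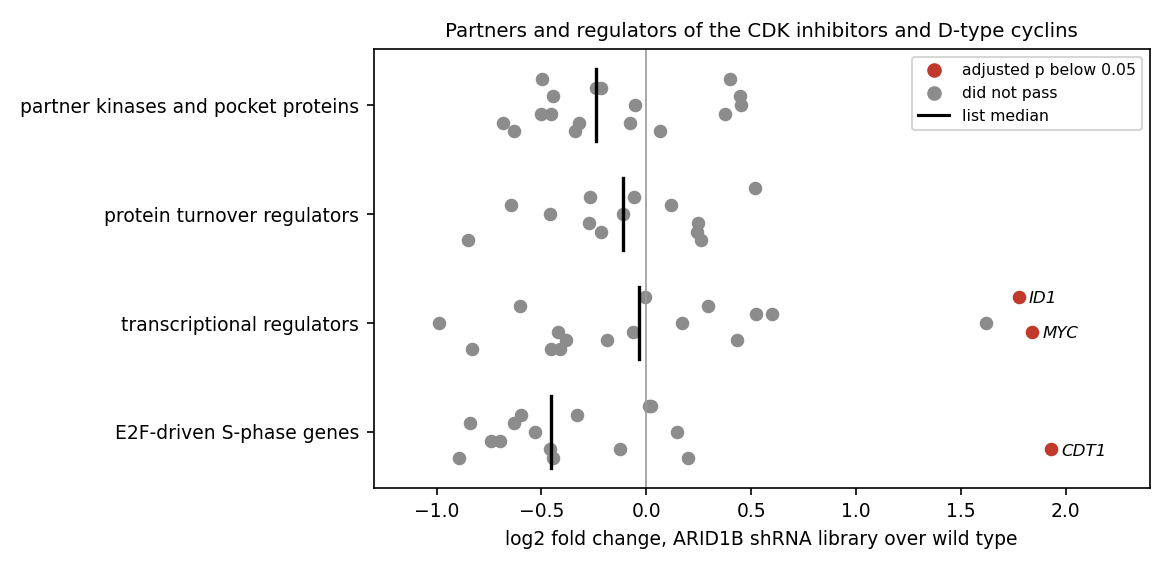
Log2 fold changes of single genes in the 4 lists of partners and regulators, red where the adjusted p was below 0.05, with list medians as black lines. MYC (1.84), ID1 (1.77) and CDT1 (1.93) stand to the right, and the S-phase median is at -0.45.

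The tested protein-coding genes closest to CDKN1A in profile, by Euclidean distance of centred log2(CPM + 1) over the 4 libraries, were ATF3, a stress-induced transcription factor (distance 0.213), VGF, a neuropeptide precursor (0.282), and AMOTL2, an angiomotin-family protein (0.376). ATF3 stood at 262 CPM in the library labelled ARID1B shRNA, against 53.3, 62.0 and 42.1 CPM in wild type. VGF was far lower, at 6.27 CPM against 0.776, 0.928 and 0.260 CPM, where the 1 CPM added before the log narrows differences. The closest to CDKN2B were the chemerin receptor gene CMKLR1 (0.512), NCALD (0.987) and POU2F3 (1.08). CMKLR1 measured 2.05 CPM in the library labelled ARID1B shRNA, against 20.6, 70.6 and 30.6 CPM in wild type. Genes were picked by likeness of profile, so its peak in library 2, as for CDKN2B, is no separate finding. These distances rest on 4 libraries that all genes share.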

How the data were processed

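RNA from Daoy cells was sequenced as 100-nucleotide single reads, in 1 library labelled ARID1B shRNA and 3 labelled wild type. The deposited values are counts of reads per Ensembl gene, 1 file per library and not normalized; the submitters' processing notes list HISAT2, HTSeq, DESeq2, bcl2fastq and the build GRCh37 (hg19). Their versions, the annotation and the strand setting are not stated in any source used here, so reads of overlapping genes are uncertain. In each file 5 closing lines that name no gene were dropped; reads outside genes made up 5.27% of genic, ambiguous and outside reads in the library labelled ARID1B shRNA and 7.07% to 7.65% in wild type, and ambiguous reads 6.75% and 5.93% to 6.25%. Symbols matched 89.9% of the 57820 identifiers. Transcript length and GC content came from the longest GENCODE 29 transcript (GRCh38), and gene order and promoters from RefSeq (GRCh38.p14). Coordinates refer to that build only.

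Counts were fitted with edgeR 4.0.16 in R 4.3.3 (filterByExpr with a minimum count of 10 and a minimum total of 15, TMM scaling, glmQLFit with robust shrinkage, glmQLFTest), which left 17024 genes and 2 residual degrees of freedom, under the assumption that the shRNA library varies like wild type. Benjamini-Hochberg adjustment ran over every tested gene, with 0.05 as the threshold. The SE is the absolute log2 fold change over the square root of F. The trend on GC content and length was a loess fit (span 0.3) per library over genes averaging at least 20 counts, entered as offsets; 97.6% of tested genes had a known GC content. Alternatives were RLE and upper-quartile scaling, no filter, at least 50 counts on average, no robust shrinkage, DESeq2 1.42.0, limma-voom (limma 3.58.1) and leaving out each wild-type library. The text names all 10 members, ARID1B, the genes around CDKN2A and CDKN2B, of each other list every gene that passed and up to 2 more with the smallest p, and the 3 nearest profiles of each member that passed. The members and lists were chosen with earlier results of these data known. Of 105 list genes 104 were in the files. Intervals and floors cover counting error only.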

Additional observations from a re-analysis of the deposited data

How the results depend on the processing

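No paired analysis was possible because the shRNA arm has 1 library and its label carries no replicate number. The log2 fold changes of the 9 tested members kept their direction under every alternative that gave them a value (none for CDKN1C at a mean count of at least 50), except CDKN2D, which went to -0.27 with the GC and length trend removed. Under that setting CDKN1A (1.81) and CDKN2B (-10.24) no longer passed, and members called higher and lower were 0 and 0 in place of 1 and 1. With limma-voom CDKN2B (-7.64) was lost, leaving 0 members lower. With no filter CDKN1C (2.17) and CCND2 (1.07) also passed, making 3 higher, and with DESeq2 CCND1 (2.16) did, making 2; DESeq2 gave CDKN1C no adjusted p. Without each wild-type library in turn, log2 fold changes ran from -10.47 to -9.71 for CDKN2B, 1.86 to 2.97 for CDKN1C, 1.84 to 2.62 for CCND1 and 0.86 to 1.44 for CCND2, with 1 to 4 members called higher and 0 to 1 lower; 4 were higher without library 1 (CDKN1A, CDKN1C, CCND1 and CCND2) and 0 lower without library 3. CDKN2B and CDKN1A stood just under the threshold without library 2 (edgeR adjusted p = 0.049 each).

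Over all genes, 621 were called higher and 142 lower. The counts were 2274 and 952 with no filter, 1336 and 439 with DESeq2 and 329 and 203 with the trend removed, and 140 to 912 and 17 to 277 without single wild-type libraries. The share of higher calls among all calls thus depended on the trend. Of the genes in the 4 partner and regulator lists 3 were higher and 0 lower; 1 to 3 were higher and 0 lower without single libraries, and the lower calls were 2 with upper-quartile scaling, 6 with no filter, 3 with the trend removed, 3 with DESeq2 and 1 with limma-voom. The share of all tested genes called lower moved as well. It was 1.13% with upper-quartile scaling, 3.10% with no filter, 1.19% with the trend removed, 2.92% with DESeq2 and 0.558% with limma-voom. Upper-quartile scaling moved the median log2 fold change of all genes from -0.05 to -0.17, and no filter to -0.27. By reads without length, CDKN2C held 67.9% of INK4 in the library labelled ARID1B shRNA and 65.3% in wild type; by merged exons, chosen after seeing the data, CDKN1A held 68.8% of CIP/KIP in wild type, and the wild-type mean share of CCND3 was 22.4% in place of 38.1%. The cause of these differences was not tested. Depth limits CDKN1C and CDKN2A, with at most 20 and 4 reads.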

Other observations

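Some annotated genes overlap the members. LTO1, on the strand opposite CCND1, had 289 reads in the library labelled ARID1B shRNA, against 170, 156 and 290 in libraries 1, 2 and 3 of wild type, far fewer than CCND1. CCND2-AS1, opposite CCND2, had 0 reads in the library labelled ARID1B shRNA, against 2, 1 and 4 in wild type. CDKN2B-AS1, which overlaps CDKN2B and CDKN2A on the opposite strand, had 0 reads in all 4 libraries. As the strand setting is not stated, these counts do not show that CDKN2B-AS1 was absent where CDKN2B was read. The annotated pseudogene copies CCND2P1, CCND3P1 and CCND3P2 also had 0 reads in all 4 libraries.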
